A study of Mus musculus with 3 samples.

Results

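The 9 genes described here take part in chloride transport or its control. These are 4 cation-chloride cotransporter genes (Slc12a5, Slc12a4, Slc12a7 and Slc12a2), the chloride channel and exchanger genes Clcn2 and Clcn3, and the kinase genes Wnk1, Wnk2 and Stk39. They were chosen by symbol, as a list of chloride balance genes, and all 9 are among the 32531 gene symbols of the count tables. The tables come from translating ribosome affinity purification (TRAP), in which ribosomes carrying EGFP-tagged ribosomal protein L10a are captured with an antibody and their RNA is read out. The 3 libraries hold immunopurified RNA from the deep cerebellar nuclei of adult mice of the transgenic line Htr6-TRAP NIDA113 on C57BL/6J, with no other genotype, treatment or unpurified tissue RNA analysed here. A level is therefore an abundance in the purified RNA. Nothing in the labels ties the libraries to separate animals or pools, so p-values and SDs measure the spread between these libraries, part of which may be technical.

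Chloride gradients decide whether GABA and glycine inhibit a neuron. KCC2 (Slc12a5) carries potassium and chloride out of the cell and is known as the main chloride extruder of mature neurons, whereas NKCC1 (Slc12a2) carries sodium, potassium and chloride into the cell and is used by many cell types, glia included. WNK kinases, which bind chloride, activate the kinase SPAK (Stk39) and its paralog OSR1 (Oxsr1), and phosphorylation by these kinases activates NKCC1 and inhibits the KCC transporters. ClC-2 (Clcn2) is a chloride channel of the plasma membrane, and ClC-3 (Clcn3) exchanges chloride for protons in endosomes and synaptic vesicles. Neurons of the deep nuclei receive dense inhibitory input from Purkinje cells.

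The libraries held 7622010 to 8842058 counts assigned to genes. A count of 0 allows a level of up to 0.397 CPM (3 counts, counting error alone). CPM scales counts to the effective library size, and RPKM are CPM per kilobase of a gene's merged exons. Unless stated otherwise, levels of different genes are compared as RPKM. The CPM thresholds, marker sums and nearest genes use CPM, without length. Htr6, from which the line takes its name, had 0, 7 and 0 counts in replicates 1, 2 and 3. Of the 9 chloride genes, 6 had a mean of at least 10 CPM and 4 of at least 100 CPM, levels that 25.1% and 6.35% of all genes in the files reached. All 8 neuronal markers had at least 100 CPM. Markers of other cells were present as well: 6 of 7 astrocyte markers and 6 of 6 oligodendrocyte markers had at least 10 CPM, against 1 of 6 microglial, 2 of 5 vascular and 0 of 5 choroid plexus markers. The microglial genes C1qa, Aif1 and Trem2, the endothelial gene Cldn5 and the choroid plexus genes Folr1 and Aqp1 had no count. All 7 granule cell markers, all 5 Purkinje cell markers and 5 of 6 markers of glutamatergic deep nuclei neurons had at least 10 CPM. The median of their mean RPKM was 94.9 for the granule cell, 180 for the Purkinje cell and 5.80 for the deep nuclei markers. Markers of the cerebellar cortex were thus higher in median than those of the labelled nuclei. Such medians of different genes do not measure shares of cells.

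Slc12a5, the most abundant of the 3 potassium-chloride cotransporter genes of this set, and Slc12a4, which was barely detected, are shown by their upstream sequences. A count per gene pools the transcripts that start at both Slc12a5 starts. KCC2 has 2 amino-terminal forms, KCC2a and KCC2b, made from different first exons. Each window holds the 250 bases before a RefSeq start in build GRCm38.p6, 5′ to 3′ on the gene's strand. Capitals mark a GC box (GGGCGG), an E-box (CACGTG) or a CCAAT box (CCAAT), searched on both strands. The windows are chr2:164960596-164960845 and chr2:164967738-164967987, both on the plus strand, for Slc12a5, and chr8:105966116-105966365 on the minus strand for Slc12a4.
Slc12a5, first start: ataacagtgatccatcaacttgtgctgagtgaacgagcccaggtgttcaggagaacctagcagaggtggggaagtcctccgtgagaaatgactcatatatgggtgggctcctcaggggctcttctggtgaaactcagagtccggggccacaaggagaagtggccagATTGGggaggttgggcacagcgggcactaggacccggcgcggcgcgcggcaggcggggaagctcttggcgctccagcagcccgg
Slc12a5, second start: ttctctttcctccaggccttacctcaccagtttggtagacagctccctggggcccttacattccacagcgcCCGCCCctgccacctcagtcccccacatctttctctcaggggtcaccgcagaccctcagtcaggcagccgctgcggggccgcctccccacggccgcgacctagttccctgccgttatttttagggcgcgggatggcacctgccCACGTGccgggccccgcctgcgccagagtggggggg
Slc12a4: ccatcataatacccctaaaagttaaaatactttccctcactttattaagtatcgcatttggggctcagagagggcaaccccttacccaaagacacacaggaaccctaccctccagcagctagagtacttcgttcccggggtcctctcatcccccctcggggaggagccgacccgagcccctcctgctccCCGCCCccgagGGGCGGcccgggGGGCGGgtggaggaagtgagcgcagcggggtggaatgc
The first Slc12a5 window holds 1 CCAAT box and the second 1 GC box and 1 E-box, while that of Slc12a4 holds 3 GC boxes. Among all 32851 windows of the same length, 32.7% hold a GC box, 33.8% a CCAAT box and 6.02% this E-box. None of the 3 windows holds the TATA box (TATAAA, 12.4% of windows), the EGR site (GCGNGGGCG, 4.7%) or the CRE (TGACGTCA, 1.55%). Their GC content was 61.2%, 67.2% and 60.8%, against a median of 52.4% over all windows. Such matches describe the letters of these windows and were not tested as binding sites.

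Transcripts of KCC2 were abundant. Slc12a5 (ENSMUSG00000017740.17, chr2:164960802-164999731 of mm10, plus strand, with 26 exons in the longest coding model) took 4235, 2868 and 1951 counts in the 3 libraries, here always in the order of replicates 1, 2 and 3. These counts are 561, 325 and 250 CPM, or 75.3, 43.7 and 33.6 RPKM. Replicate 1 was the highest and replicate 3 the lowest, with a ratio of 2.24 between them. The mean of 50.9 ± 21.7 RPKM (SD, n = 3) placed Slc12a5 at rank 533 of 23155 genes with a length.

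For the other potassium-chloride cotransporters of the set, transcripts were close to the detection limit. Slc12a4, the gene of the broadly expressed KCC1 (chr8:105943590-105966097, minus strand), had 3, 4 and 2 counts, which is 0.397, 0.454 and 0.257 CPM. All 3 values lie at or near the level of 3 counts, so Slc12a4 was barely detectable at this depth. Gm16156, on the other strand, shares 8.44% of its exon bases, and 5.9% of its 50-base words occur in another annotated gene. Slc12a7, the gene of KCC4 (chr13:73733094-73816754, plus strand), had 39, 6 and 4 counts, or 5.16, 0.681 and 0.513 CPM. Its counts were thus mostly those of replicate 1.

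NKCC1 transcripts were at a lower level than those of KCC2. Slc12a2 (ENSMUSG00000024597.11, chr18:57878678-57946821, plus strand, 27 exons) had 720, 618 and 1038 counts, or 95.3, 70.1 and 133 CPM. These are 8.73, 6.42 and 12.2 RPKM, with a mean of 9.12 ± 2.91 RPKM (SD, n = 3). Replicate 3 was the highest for Slc12a2 and the lowest for Slc12a5.

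**Figure D1:**
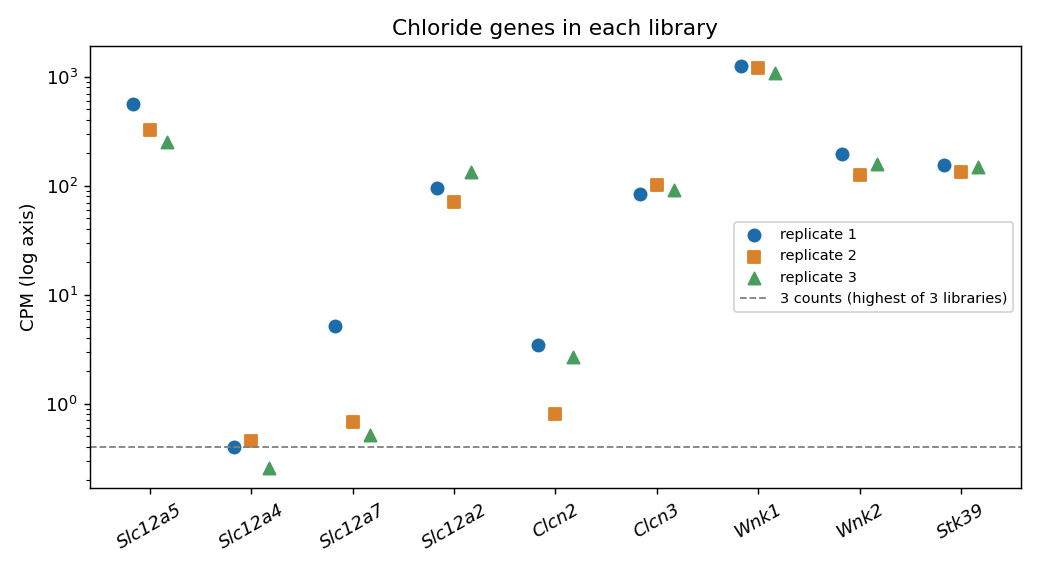
CPM of the 9 chloride genes in each of the 3 libraries on a log axis, with a dashed line at the level of 3 counts. Slc12a5 lies between 250 and 561 CPM and Wnk1 between 1089.7 and 1252 CPM, whereas Slc12a4 sits at the dashed line and Slc12a7 and Clcn2 lie under 10 CPM in every library.

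Slc12a5 exceeded Slc12a2 in every library, by an amount that differed between libraries. Per kilobase of merged exons, the ratio of Slc12a5 to Slc12a2 was 8.63 in replicate 1, 6.81 in replicate 2 and 2.76 in replicate 3. The 95% exact (Clopper-Pearson) counting intervals of these ratios were 7.97 to 9.35, 6.24 to 7.44 and 2.55 to 2.97, so the ratios differed between libraries beyond counting error. As a share of the counts of both genes, without length, Slc12a5 took 85.5% (84.5 to 86.4%), 82.3% (81.0 to 83.5%) and 65.3% (63.5 to 67.0%). No molecular identifiers are mentioned, so reads may be copies of 1 molecule and these intervals cover counting error only. The difference of Slc12a5 minus Slc12a2 was 2.43 ± 0.86 on the log2(RPKM + 0.1) scale (SD, n = 3; 5.4-fold, higher in 3 of 3 libraries). The difference was larger than the SD between libraries. A two-sided exact permutation test that flips the signs of 3 differences has 0.25 as its smallest p, which it gave here (p = 0.25, adjusted p = 0.25 over the 4 differences computed). With the length of the longest coding transcript (6028 bases for Slc12a5 and 6520 bases for Slc12a2) the ratio was 4-fold, with an SD of 0.87 on the log2 scale.

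**Figure D2:**
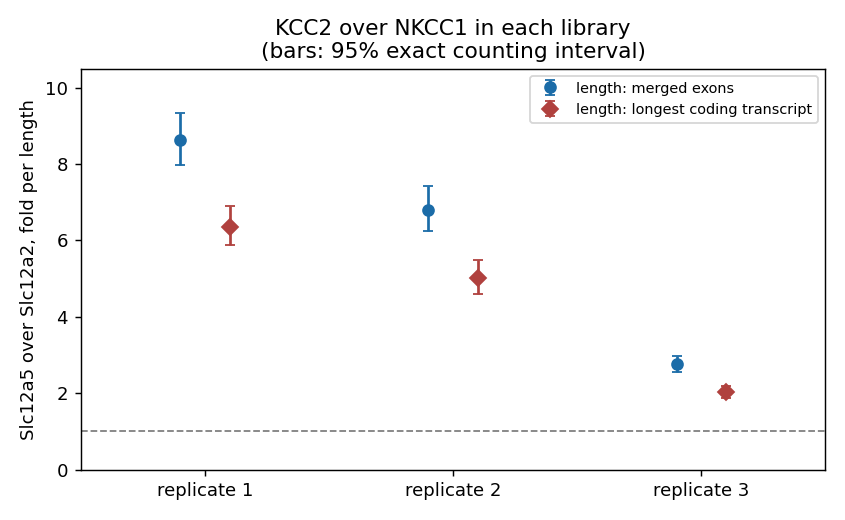
Ratio of Slc12a5 to Slc12a2 per length in each library, with 95% exact counting intervals as bars, for both definitions of gene length. All ratios lie above the dashed line at 1, and replicate 3 (2.76 with merged exons, 2.03 with the longest coding transcript) lies below the intervals of the other libraries.

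Markers of cell types moved between the libraries as well. The summed CPM of the 8 neuronal markers (25607, 23581 and 17527) and of the 6 markers of glutamatergic deep nuclei neurons (735, 522 and 478) had the same order over replicates 1, 2 and 3 as Slc12a5. Taken singly, 3 of the 8 neuronal markers (Snap25, Nefm and Nefl) and 1 of the 6 deep nuclei markers (Slc17a6) had that order. Most markers of either list thus did not have it. Of the 6 oligodendrocyte markers, 3 (Mbp, Mobp and Mag) had it as well, though their sum did not. The summed CPM of the 4 markers of inhibitory neurons (706, 397 and 890), all of which had a mean of at least 10 CPM, and of the 3 markers of oligodendrocyte precursors (138, 88.0 and 266), of which 2 did, had the same order as Slc12a2. Taken singly, 2 of the 4 inhibitory markers (Gad2 and Slc6a5) and 2 of the 3 precursor markers (Pdgfra and Vcan) had it. Also in that order were 2 of the 7 astrocyte markers (Slc1a2 and Gdf10). Syt1 of the neuronal, Zic1 of the granule cell, Mog of the oligodendrocyte and Pdgfrb of the vascular markers had it too. With 3 libraries few orders are possible, and the share of all genes in each order was not computed. The 7 astrocyte markers summed to 1680, 1823 and 2210 CPM, highest in replicate 3 like Slc12a2, and the 6 oligodendrocyte markers to 3133, 3662 and 2890 CPM. The 5 choroid plexus markers, an epithelium in which NKCC1 is abundant, summed to 14.0, 21.5 and 6.16 CPM. Fewer cells of a type and less RNA per cell cannot be told apart in such libraries, and the part of these markers in the Slc12a5 and Slc12a2 levels was not tested.

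The genes nearest to each transporter across the 3 libraries were found by the largest difference in log2(CPM + 1) in any library, among 32530 other genes. For Slc12a5 they were Kcnj10, a glial inward-rectifier potassium channel (517, 309 and 285 CPM), Ldhb, a lactate dehydrogenase subunit (484, 327 and 263 CPM), and Chd6, a chromatin remodeler (524, 363 and 292 CPM), within 0.19, 0.21 and 0.22. For Slc12a2 they were Cyfip1 (91.0, 70.5 and 133 CPM), Sec24a (92.3, 74.7 and 126 CPM) and H2afy (92.8, 65.1 and 134 CPM), within 0.07, 0.09 and 0.11. With 3 libraries and so many genes, such likeness of level is a description.

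None of the 4 SLC12 genes reported here from outside the set had at least 10 CPM. Slc12a1, the kidney cotransporter NKCC2, had no count, Slc12a3, the thiazide-sensitive cotransporter of the kidney, had 0, 0 and 31 counts, Slc12a8 had 0, 0 and 2, and Slc12a9 had 10, 9 and 0.

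Wnk1 and Stk39, of the kinases that act on these transporters, had similar levels in the 3 libraries, and Wnk2 varied more. Wnk1 (ENSMUSG00000045962.16, chr6:119923969-120038672, minus strand, 28 exons) had 9458, 10636 and 8492 counts, or 54.9, 52.9 and 47.7 RPKM. The 3 libraries lay within a ratio of 1.15, and the mean of 51.8 ± 3.67 RPKM (SD, n = 3) ranked 522 of 23155 genes with a length. Wnk1 has 15 coding transcripts in the annotation, including short forms, and a count per gene pools them. Wnk2, a paralog known from brain (chr13:49036303-49148014, minus strand), had 1460, 1101 and 1220 counts, or 22.8, 14.7 and 18.5 RPKM. Replicate 1 was the highest for Wnk2, and its range did not overlap with that of Wnk1.

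Wnk1 exceeded Wnk2 by 1.49 ± 0.31 on the log2(RPKM + 0.1) scale (SD, n = 3; 2.81-fold, in 3 of 3 libraries; p = 0.25 by the same exact permutation test, adjusted p = 0.25). The size depends on the gene model, and with the longest coding transcript it was 2.20 ± 0.31, or 4.6-fold. Wnk3, the X-linked paralog, had 974, 1520 and 745 counts (12.5 ± 3.64 RPKM), and Wnk4, best known from the kidney, had no count in any library. Of the RPKM of the 4 WNK genes, Wnk1 took 61.1%, 63.0% and 63.5%, Wnk2 25.4%, 17.6% and 24.5% in replicates 1, 2 and 3. The Wnk3 share was 15.0 ± 3.91% (SD, n = 3), and the Wnk1 share was the most even of the 3, at 62.5 ± 1.27%.

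Stk39, the gene of SPAK (ENSMUSG00000027030.15, chr2:68210445-68472268, minus strand, 18 exons), had 1156, 1167 and 1165 counts. These are 30.9, 26.7 and 30.2 RPKM, a mean of 29.3 ± 2.22 (SD, n = 3). Oxsr1, the gene of OSR1, had 612, 849 and 750 counts, or 15.1, 18.0 and 18.0 RPKM. Stk39 exceeded Oxsr1 by 0.78 ± 0.23 on the log2(RPKM + 0.1) scale (1.71-fold, in 3 of 3 libraries; p = 0.25 by the same exact permutation test, adjusted p = 0.25), and the ranges of both genes did not overlap.

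Of the 10 further genes of the WNK pathway, 7 had at least 10 CPM and 5 at least 100 CPM. Cab39, the scaffold MO25 that activates SPAK and OSR1, was at 17.1 ± 4.03 RPKM (SD, n = 3), whereas its paralog Cab39l had 123, 82 and 1070 counts and was high in replicate 3 only. Cul3, the cullin of the ubiquitin ligase that degrades WNK kinases, was at 46.1 ± 21.2 RPKM. Its values of 69.1, 41.9 and 27.4 RPKM had the same order over the libraries as those of Slc12a5. That order is not particular to Cul3. Wnk1 (54.9, 52.9 and 47.7 RPKM) and Lrrc8a (80.4, 67.2 and 51.0 RPKM), among others, had it too. The adaptor genes of that ligase were low, with Klhl3 (31, 112 and 14 counts) at 0.847 ± 0.786 RPKM and Klhl2 (28, 83 and 73 counts) at 0.811 ± 0.355 RPKM. The ubiquitin ligase gene Nedd4l (55.0 ± 13.3 RPKM) and the kinase gene Sgk1 (32.4 ± 19.5 RPKM) were higher.

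Transcripts of ClC-3 were well measured in each library, and those of ClC-2 were few. Clcn3 (ENSMUSG00000004319.15, chr8:60910389-60983300, minus strand) had 628, 890 and 717 counts, or 4.87, 5.92 and 5.39 RPKM. The libraries lay within a ratio of 1.21. Its merged exons span 17071 bases but its longest coding transcript only 5684, so the level is 5.39 ± 0.52 RPKM with the first length and 16.2 ± 1.57 RPKM with the second (SD, n = 3). Clcn2 (chr16:20702964-20717746, minus strand) had 26, 7 and 21 counts, or 0.572, 0.132 and 0.448 RPKM. Fam131a and Polr2h, on the other strand, share 2.77% of its exon bases, and without a stated strand setting their reads cannot be told apart there.

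Clcn3 exceeded Clcn2 by 3.64 ± 0.94 on the log2(RPKM + 0.1) scale (SD, n = 3; 12.4-fold, in 3 of 3 libraries; p = 0.25 by the same exact permutation test, adjusted p = 0.25). With the longest coding transcript it was 4.73 ± 1.03, or 26.5-fold. The fold depends on the pseudocount, because Clcn2 is low, and was 4.65-fold with 1 RPKM in place of 0.1. Of the 9 other CLC genes and partners reported here, 5 had at least 10 CPM. Clcn4-2, the gene of the exchanger ClC-4, was at 9.75 ± 2.21 RPKM and took 40.7 ± 7.78% of the summed RPKM of 7 CLC genes (Clcn1 to Clcn7), against 22.7 ± 3.47% for Clcn3. With the longest coding transcript these shares were 39.8 ± 7.28% and 35.9 ± 5.38%, and Clcn3 was the higher in replicate 2. Clcn5 (255, 78 and 341 counts) and Clcn6 (66, 282 and 193 counts), which also encode exchangers of endosomes and lysosomes, varied more. Clcn1, the muscle chloride channel, had 20, 0 and 40 counts. Hepacam, the glial cell adhesion molecule that binds ClC-2, was at 377, 301 and 654 counts, and its partner gene Mlc1 at 131, 44 and 59.

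**Figure D3:**
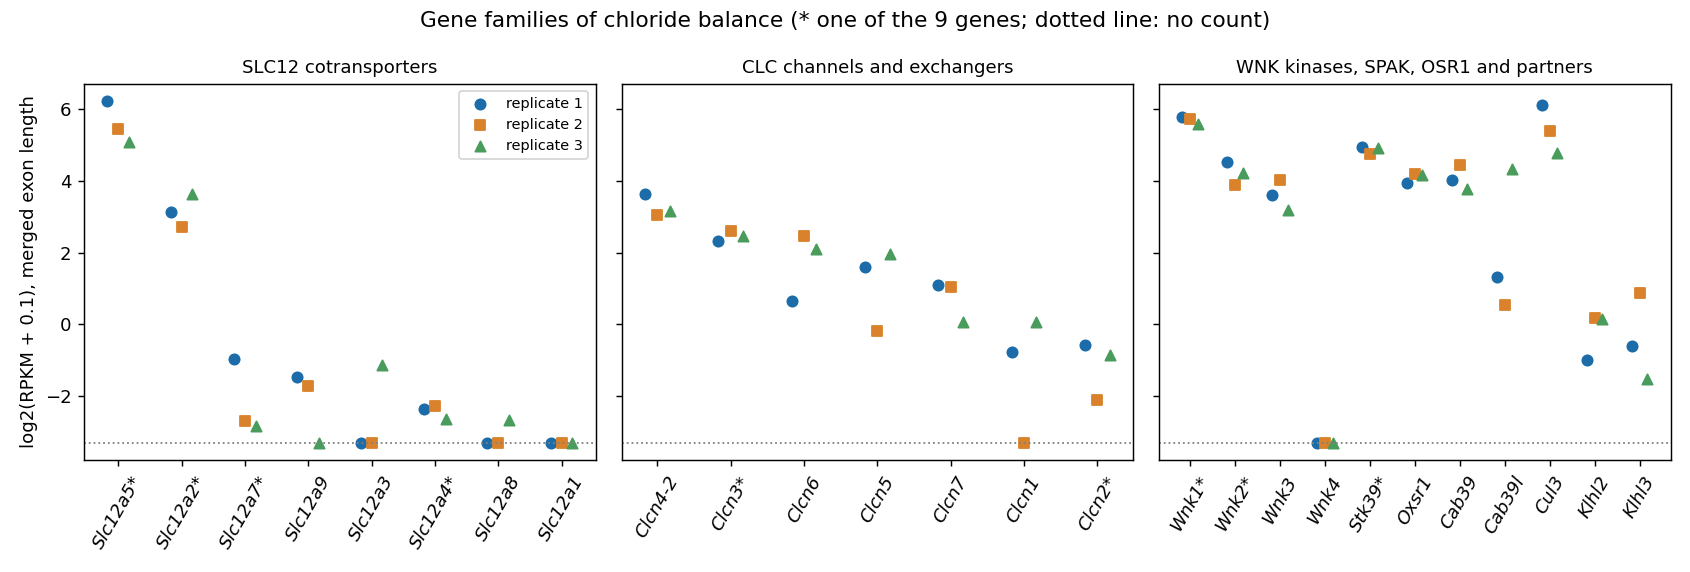
Levels of 3 gene families in each library as log2(RPKM + 0.1) with merged exon lengths, where asterisks mark the 9 genes and the dotted line marks no count. In each library Slc12a5 is the highest of the SLC12 genes shown and Wnk1 the highest WNK gene, while Clcn4-2 lies above Clcn3 with these lengths.

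Genes of proteins that bind KCC2 or move chloride and bicarbonate by other routes were widely represented. All 6 genes of KCC2-binding proteins had at least 10 CPM, led per length by the creatine kinase gene Ckb (148 ± 23.5 RPKM; SD, n = 3) and Epb4.1l1, the gene of the cytoskeletal protein 4.1N (59.8 ± 11.1 RPKM). Neto2, whose product is an auxiliary subunit of kainate receptors and of KCC2, had 651, 906 and 1569 counts. Pacsin1, Arhgef7 and Grik2 were at 26.4, 8.11 and 6.83 RPKM. Of 19 genes of other chloride or bicarbonate routes, 15 had at least 10 CPM. The sodium bicarbonate cotransporter gene Slc4a4, strong in astrocytes, was at 69.8 ± 10.9 RPKM. Lrrc8a, the essential subunit of volume-regulated anion channels, was at 66.2 ± 14.8 RPKM, and the carbonic anhydrase gene Car2 at 55.1 ± 9.25 RPKM. The sodium-driven chloride-bicarbonate exchanger gene Slc4a8 was at 39.6 ± 3.81 RPKM, and its relative Slc4a10 at 692, 2784 and 980 counts was high in replicate 2. Slc4a3, the anion exchanger AE3, was lower at 1.93 ± 0.28 RPKM. Lrrc8e and the calcium-gated chloride channel gene Ano2 had no count.

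Ordered per kilobase of merged exons, the 9 genes ran from Wnk1 (51.8 RPKM) and Slc12a5 (50.9 RPKM) through Stk39 (29.3), Wnk2 (18.7), Slc12a2 (9.12) and Clcn3 (5.39) to Clcn2 (0.384), Slc12a7 (0.167) and Slc12a4 (0.0863). Wnk1 and Slc12a5 did not differ beyond their spread (log2 difference 0.11 ± 0.50, Wnk1 higher in 2 of 3 libraries). The ranges of Clcn2 and Slc12a7, and of Slc12a7 and Slc12a4, overlapped too. Slc12a7 was above Slc12a4 in 1 of 3 libraries, and without replicate 1 its mean was 0.0471 RPKM, below the 0.0830 RPKM of Slc12a4. Each of the other neighbours in this order had ranges that did not overlap. With the longest coding transcript as length, Wnk1 (104 RPKM) exceeded Slc12a5 (62.8 RPKM) in 3 of 3 libraries, by 0.81 ± 0.50. On that scale Slc12a5 overlapped with Stk39, and Clcn3 (16.2 RPKM) overlapped with Slc12a2 (15.3 RPKM). Slc12a7 exceeded Slc12a4 there in 3 of 3 libraries, and their ranges overlapped. The median of the 9 genes was 9.12 RPKM, against 3.94 RPKM over the 12562 genes with a length and at least 10 counts over the libraries.

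**Figure D4:**
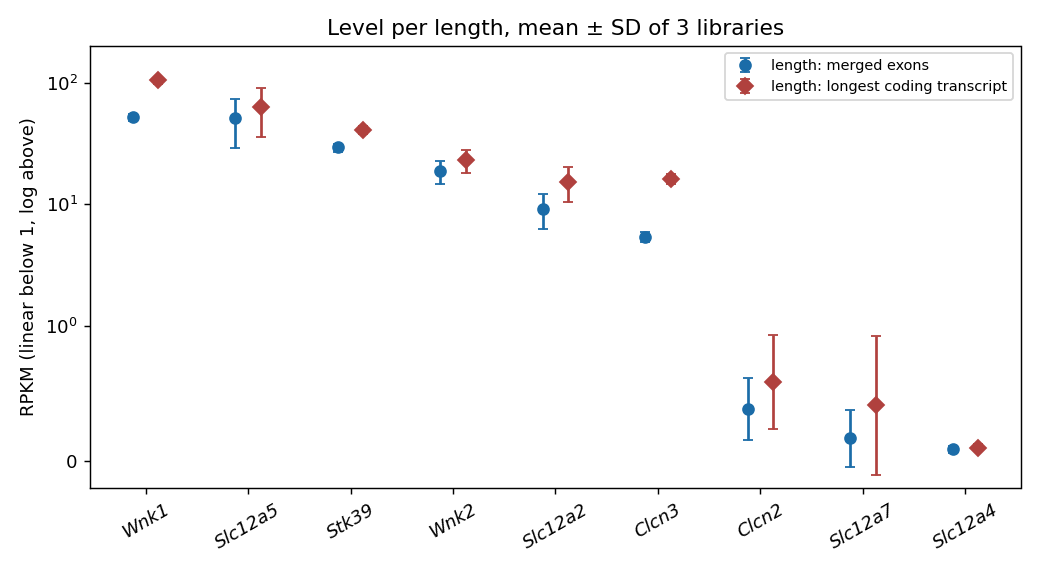
Mean RPKM of the 9 genes with SD over 3 libraries as bars, with merged exons or the longest coding transcript as the gene length, on an axis that is linear below 1 and logarithmic above. Wnk1 and Slc12a5 overlap with the first length and not in mean with the second, and Clcn2, Slc12a7 and Slc12a4 lie under 1 RPKM with both.

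Between libraries, the 7 genes that could be tested varied beyond counting error, and none passed the test for varying more than genes of its level. At least 10 counts in every library were reached by 6 of the 9 genes, against 27.6% of all genes in the files. Slc12a4 and Slc12a7 did not reach 10 counts in 2 libraries and were not tested. By a Poisson chi-square test with Benjamini-Hochberg adjustment over 11168 genes, 7 of 7 varied at an adjusted p under 0.05, as did 96.5% of all genes tested, so the count says nothing particular about these 7. The chi-square per degree of freedom was 538 for Slc12a5, 84.1 for Slc12a2 and 60.7 for Wnk2, but 7.03 for Clcn3 and 7.02 for Stk39, against a median of 59.7 over all genes tested. Without replicate 2, 4 of 7 passed, against 81.8% of all genes tested, and Clcn2, Clcn3 and Stk39 did not (adjusted p = 0.44, 0.076 and 0.6). Clcn3 did not pass without replicate 1 either (adjusted p = 0.077), where 5 of 6 did, against 80.5% of all genes tested.

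By edgeR's quasi-likelihood dispersion over its trend, 0 of 7 and 0% of all genes tested passed an adjusted p under 0.05. At an unadjusted p under 0.05 these were 0 of 7 and 477 of 11168 genes. By the residual variance of limma, 0 of 7 and 0 of 11168 genes passed an adjusted p under 0.05. At an unadjusted p under 0.05 limma called 0 of 7 and 521 of 11168 genes. In edgeR, dispersion relative to the trend was highest for Slc12a5 at 2.9 (unadjusted p = 0.11, adjusted p = 0.96). It was under 1 for the other 6, down to 0.048 for Stk39. Over all genes tested, 58.1% were under 1. The coefficient of variation was 42.7% for Slc12a5 and 31.9% for Slc12a2, but 9.71% for Clcn3, 7.59% for Stk39 and 7.09% for Wnk1. Its median was 21.6% over the 7 genes and 56.3% over all genes tested, which include many of lower level.

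**Figure D5:**
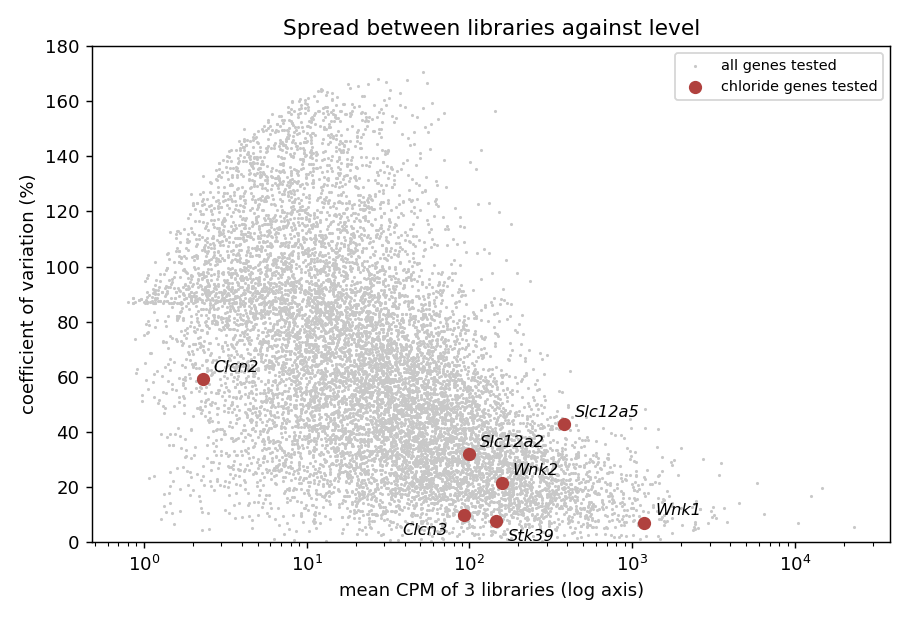
Coefficient of variation of CPM over the 3 libraries against the mean CPM (log axis) for all genes tested (grey) and the 7 chloride genes tested (red). Wnk1, Stk39 and Clcn3 lie under 10%, Slc12a5 lies at 42.7% and Clcn2, the lowest in CPM, at 59.1%.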

How the data were processed

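RNA bound to EGFP-tagged ribosomes of the deep cerebellar nuclei was sequenced in 3 libraries of 1 group, numbered 1 to 3 in the labels. Each library's deposited table gives raw read counts by gene symbol, not normalized. STAR 2.0.0e, HTSeq and mm10 are named in the submitters' processing notes, while the annotation used for counting is not given in the sources used here, nor is the strand setting. HTSeq's summary rows and an empty row named unknown were left out. Reads with no feature were 44.1% to 50.2% and reads ambiguous between genes 1.77% to 1.94% of the reads counted. Multiply aligned reads were not counted to genes.

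CPM used TMM library sizes (edgeR 4.0.16, R 4.3.3), and RPKM used merged exon lengths of GENCODE M21 (GRCm38). Clcn4 and Epb41l1 stand in the tables as Clcn4-2 and Epb4.1l1, and Pacc1 as Tmem206. RefSeq upstream windows were matched by symbol, leaving out chromosome 18, where Slc12a2 lies. Windows were thus kept for 8 of the 9 genes. Differences are on the log2(RPKM + 0.1) scale with an exact sign-flip permutation test. Spread was tested by Poisson chi-square, where a gene had 10 counts or more in 2 libraries, and by edgeR's quasi-likelihood dispersion. Both tests were run on simulated data, where only the Poisson test had to meet a set limit. The power of the edgeR test is not reported here. Alternatives were limma 3.58.1, DESeq2 1.42.0 size factors, other lengths, filters and left-out libraries. The 9 genes, the lists and the tests were chosen with earlier results of these data known. Named are all 9 genes, the genes of the pathway lists at 10 CPM or more or without counts with a few others (some listed genes are not reported here), and the 3 nearest genes of Slc12a5 and Slc12a2. Intervals are 95% exact (Clopper-Pearson, scipy 1.17.1) and cover counting error only.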

Additional observations from a re-analysis of the deposited data

How the results depend on the processing

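The differences of Slc12a5 minus Slc12a2, Clcn3 minus Clcn2, Wnk1 minus Wnk2 and Stk39 minus Oxsr1 kept their direction under 9 alternatives each. These were DESeq2 size factors, total counts, a pseudocount of 1 RPKM, 2 other lengths, no length scaling and each library left out. Only the 2 other lengths and no length scaling could have reversed a direction. Library size and an equal pseudocount leave the higher gene of a library the higher. Each first gene was higher in 3 of 3 libraries, so leaving out a library could not reverse its difference. Slc12a5 minus Slc12a2 ranged from 1.89 without length scaling to 2.92 without replicate 3 in log2 units, Clcn3 minus Clcn2 from 2.22 with a pseudocount of 1 RPKM to 5.47 without length scaling, Wnk1 minus Wnk2 from 1.31 without replicate 2 to 2.92 without length scaling, and Stk39 minus Oxsr1 from 0.59 with the coding length to 1.06 with the longest coding transcript. The permutation test cannot pass 0.05 in any of them, so it says nothing on stability. The mean RPKM of the 9 genes moved by less than their SD with DESeq2 size factors and total counts. Leaving out 1 of 3 libraries cannot move a mean by as much as its SD, so that comparison says nothing on stability. The mean of Slc12a7, whose SD exceeds it, fell to 0.0471 RPKM without replicate 1, against 0.167 RPKM over all libraries. The length of the longest coding transcript moved 6 of 9 means by more than their SD, and the coding length all 9. The shares of Wnk1 among WNK genes and Clcn3 among CLC genes became 73.2% and 35.9% with the longest coding transcript, a comparison chosen after seeing the data. With each library left out, the Poisson test called 5 of 6, 4 of 7 and 6 of 6 of the chloride genes tested without replicates 1, 2 and 3, against 80.5%, 81.8% and 82.2% of all genes tested. The edgeR test of all genes called 1 with 10 counts required in every library, 20 with no filter and 2 to 5 with each library left out. It called none of the 9 genes under any alternative, and the cause was not tested. Without replicate 2, Slc12a5 had an unadjusted p of 0.040 in edgeR (adjusted p = 0.996). At an unadjusted p under 0.05, that setting had 1 of 7 chloride genes and 372 of 9658 genes. No contrast between groups was possible because the labels give a single group. The differences between genes were taken within each library. Depth limits Slc12a4, Slc12a7 and Clcn2, whose levels rest on 2 to 39 counts per library.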
